A study of Mus musculus with 8 samples.

Results

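Foxc1 and Foxc2 are paralogous forkhead transcription factors of the mouse, and both were read from the row of their symbol in a table of 24539 genes, of which 44 were forkhead genes. The 2 genes were chosen by their levels over the 4 genotype groups, which ran in opposite directions, so their levels and their differences between groups are described here with errors and carry no test. RNA sequencing was done on nephron progenitors sorted by flow cytometry from kidneys of E18.5 embryos, and each group had 2 libraries. All groups carried Six2GFPcre, from which the Six2 promoter drives GFP fused to Cre, so Cre acts in the cells that the GFP sort collects. The KO-labelled group was Smo c/c, with both Smo alleles conditional, and the Het-labelled group was Smo c/+. The WT-labelled group was Smo +/+, and the SmoM2-labelled group was Smo +/+ with Rosa26 SmoM2/+, from which Cre turns on an active Smo. The design varied the dose of Smo, which relays Hedgehog signals across the cell membrane. The labels do not say whether a library came from a single animal or from a pool, so the p-values measure the spread between these samples, which may be technical.

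Forkhead factors bind DNA through a winged-helix domain, and Foxc1 and Foxc2 have nearly the same domain. In the embryo the pair acts in overlapping ways in the paraxial and intermediate mesoderm, the heart and the vessels. In the kidney Foxc1 helps to set where the ureteric bud grows out, where loss of its function gives duplicated kidneys and ureters, and Foxc2 is used by podocytes, the filter cells of the glomerulus, with Foxc1 acting beside it. Hedgehog signals act through Smo and the Gli factors, and in the kidney they are best known in the stroma that surrounds the nephron progenitors.

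Foxc1 (ENSMUSG00000050295) lies on the plus strand at chr13:31806633-31812476 of GRCm38 and is a gene of 1 exon, with its coding bases at 31807208 to 31808866. Foxc2 (ENSMUSG00000046714) lies on the plus strand at chr8:121116171-121118895, also with 1 exon, and its coding bases run from 121116615 to 121118096. The deposited gene lengths were 3990 bases for Foxc1 and 2724 for Foxc2. The stretch where their transcripts are most alike is shown because reads from it could be assigned to the wrong gene. It is 150 coding bases of the forkhead domain, at chr13:31807589-31807738 and chr8:121116975-121117124 in the GENCODE transcripts of GRCm38, and capitals mark the bases that differ.
Foxc1: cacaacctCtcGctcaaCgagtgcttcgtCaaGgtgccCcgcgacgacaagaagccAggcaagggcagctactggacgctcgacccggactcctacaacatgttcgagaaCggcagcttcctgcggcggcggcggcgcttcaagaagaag
Foxc2: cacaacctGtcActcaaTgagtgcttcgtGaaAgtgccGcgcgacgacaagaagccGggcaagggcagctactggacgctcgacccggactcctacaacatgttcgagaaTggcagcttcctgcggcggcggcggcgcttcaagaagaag
In this stretch 142 of 150 bases were identical (94.7%) and 8 differed, and the longest identical run was 53 bases. Over the whole transcripts, 4 of the 5795 sequences of 50 bases in Foxc1 occurred in Foxc2, and of the 5770 sequences of 75 bases none did. The read length is not given in the sources used here.

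Because Smo acts through Gli factors, the promoter of Foxc1 was searched for 3 short motifs on both strands. RefSeq gave a window of 300 bases for 1 of the 2 genes, Foxc1, running from 250 bases before to 50 bases after its start. The part before the first annotated base, chr13:31806396-31806632 of GRCm38.p6, is shown with its match to the CCAAT box in capitals, which reads ATTGG on this strand.
Foxc1 upstream: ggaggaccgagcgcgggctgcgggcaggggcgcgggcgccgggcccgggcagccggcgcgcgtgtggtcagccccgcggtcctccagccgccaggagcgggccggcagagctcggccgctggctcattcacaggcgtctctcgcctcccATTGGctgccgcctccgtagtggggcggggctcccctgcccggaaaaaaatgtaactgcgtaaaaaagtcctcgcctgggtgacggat
The Gli letters GACCACCCA had 0 matches in the window and occurred in 0.253% of 32851 promoter windows of that length. The forkhead letters GTAAACA also had 0 matches, and 3.65% of windows held them. CCAAT had 2 matches in the window, 1 of them in the part shown, and 37.4% of windows held it. These counts describe the letters of this window only.

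Summed counts per library ranged from 4422305 to 10305398 and were lowest in both KO-labelled libraries. Six2, which marks the progenitors, was at 1132 CPM or more in every library (CPM gives a gene's count relative to the scaled size of its library), whereas Nphs1, which marks mature podocytes, had 3 counts or fewer in each. Smo was at 12.1 ± 1.39 CPM (SD, n = 2) in KO-labelled, 19.2 ± 6.73 in Het-labelled, 369 ± 8.48 in WT-labelled and 617 ± 17.1 in SmoM2-labelled libraries. The Het-labelled level goes against a label with 1 intact allele, so the libraries are named by their labels throughout. By Xist and Y-linked counts both KO-labelled libraries looked male and both Het-labelled libraries female, so these groups' genotype and sex cannot be told apart. The WT- and SmoM2-labelled groups had 1 library of each pattern, replicate 1 male and replicate 2 female.

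Foxc1 was lowest in KO-labelled libraries and higher in each next group, from Het- over WT- to SmoM2-labelled. Its scaled level was 275 and 219 CPM in KO-labelled libraries, 492 and 397 in Het-labelled, 610 and 659 in WT-labelled and 792 and 844 in SmoM2-labelled libraries. No library of a group overlapped with a library of the next group in this order. The raw counts behind these levels were 1242 and 1008, 3682 and 2336, 6545 and 6054, and 7750 and 7303, so counting error was small in every library. Across all 13459 tested genes, 240 (1.78%) were higher in each next group with no overlap, and 1.20% were lower in each next group. By group means alone, 10.8% were in the rising order and 9.91% in the falling order.

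The Foxc1 group means were 247 ± 39.3, 444 ± 67.5, 635 ± 34.8 and 818 ± 36.5 CPM (SD, n = 2 each). The KO-labelled mean was 2.57-fold lower than the WT-labelled mean (log2 difference -1.36, SE 0.15) and 3.31-fold lower than the SmoM2-labelled mean (-1.73, SE 0.15). Between the neighbouring groups the log2 difference was -0.85 (SE 0.15) for KO- minus Het-labelled, -0.51 (SE 0.15) for Het- minus WT-labelled and 0.37 (SE 0.15) for SmoM2- minus WT-labelled libraries. Het-labelled libraries were thus placed between the KO- and WT-labelled ones for Foxc1, although their Smo level lay near that of the KO-labelled libraries. The smallest of the steps, from WT- to SmoM2-labelled, was 1.29-fold.

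Foxc2 showed a weaker pattern that was not the mirror image of Foxc1. Its level was 234 and 231 CPM in KO-labelled libraries, 239 and 243 in Het-labelled, 158 and 200 in WT-labelled and 132 and 162 in SmoM2-labelled libraries. The KO- and Het-labelled libraries were all above the WT- and SmoM2-labelled ones, but the WT- and SmoM2-labelled libraries overlapped. The share of all tested genes with this split was not counted. Whether the split is common among them therefore cannot be said. Of all tested genes 32.5% were called in KO- and 33.7% in Het- against SmoM2-labelled libraries, in either direction, which is a different measure. The counts were 1058 and 1063, 1785 and 1430, 1690 and 1840, and 1288 and 1406.

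The Foxc2 group means were 233 ± 2.01, 241 ± 3.03, 179 ± 30.3 and 147 ± 21.8 CPM (SD, n = 2 each). The log2 difference from the WT-labelled libraries was 0.38 (SE 0.14) for the KO-labelled, 0.43 (SE 0.14) for the Het-labelled and -0.28 (SE 0.14) for the SmoM2-labelled libraries. Against the SmoM2-labelled libraries it was 0.66 (SE 0.15) for the KO-labelled and 0.71 (SE 0.14) for the Het-labelled libraries. The KO- and Het-labelled means differed by -0.05 (SE 0.14), less than the error, and the sign was the opposite under 2 of the alternatives. The order of the means was therefore Het- and KO-labelled together, then WT-labelled, then SmoM2-labelled, where the libraries of the last neighbours overlapped. Within each sex pattern the SmoM2-labelled library was the lower, at 132 against 158 CPM in the male and 162 against 200 CPM in the female libraries.

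A single library weighed on the Foxc2 differences. Without WT-labelled replicate 1 the KO- minus WT-labelled difference was 0.21 and the Het- minus WT-labelled difference 0.26. Without WT-labelled replicate 2 the SmoM2- minus WT-labelled difference was -0.09. In the WT- and SmoM2-labelled groups the lower Foxc2 library was each time the one of male pattern, at 158 and 132 CPM, and the KO-labelled libraries, also of male pattern, were at 234 and 231. The part of sex in the Foxc2 levels was not tested.

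**Figure D1:**
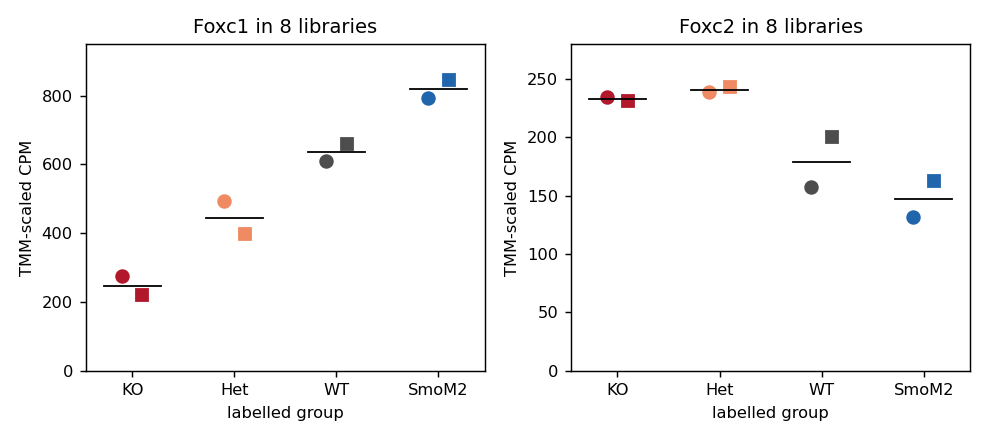
Scaled level (CPM, vertical axis from 0) of Foxc1 and Foxc2 in the 8 libraries by labelled group (horizontal axis), with circles for replicate 1, squares for replicate 2 and a line at the group mean. The Foxc1 libraries climb from 219 to 844 CPM without overlap between neighbouring groups, and the Foxc2 libraries lie between 132 and 243 CPM with the KO- and Het-labelled ones on top.

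The Foxc2 differences from WT- and SmoM2-labelled libraries were smaller once trends with GC content and length were removed. The Foxc2 transcript has 62.0% G and C, at percentile 97.7 of the tested genes with a value, whereas Foxc1, at 53.9%, was at percentile 67.5, and the median gene had 50.7%. The trend of all genes with GC content and length put genes like Foxc2 at 0.22 and -0.02 (log2) in KO-labelled, 0.26 and 0.28 in Het-labelled, -0.15 and -0.15 in WT-labelled and -0.21 and -0.18 in SmoM2-labelled libraries. Genes like Foxc1 were between -0.04 and 0.13 in all 8. Both KO-labelled libraries had nearly the same Foxc2 level, although their trend values for genes like Foxc2 differed. With these trends removed, an alternative chosen after seeing the data, the Foxc2 difference was 0.11 for KO- minus WT-labelled, 0.02 for Het- minus WT-labelled and -0.24 for SmoM2- minus WT-labelled libraries. Against the SmoM2-labelled libraries, 0.34 was left for the KO-labelled and 0.26 for the Het-labelled.

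The Foxc1 differences kept their direction and most of their size when the trends were removed. They were -1.39 for KO- minus WT-labelled, -0.65 for Het- minus WT-labelled, 0.37 for SmoM2- minus WT-labelled, -0.74 for KO- minus Het-labelled, -1.76 for KO- minus SmoM2-labelled and -1.02 for Het- minus SmoM2-labelled libraries. Their sign was the same under every alternative run. Leaving out a library could not be expected to reverse it, since the Foxc1 levels did not overlap between any groups. With the trends removed, Foxc2 in KO- and Het-labelled libraries was thus within 1 SE of its WT-labelled level, and Foxc1 was not.

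**Figure D2:**
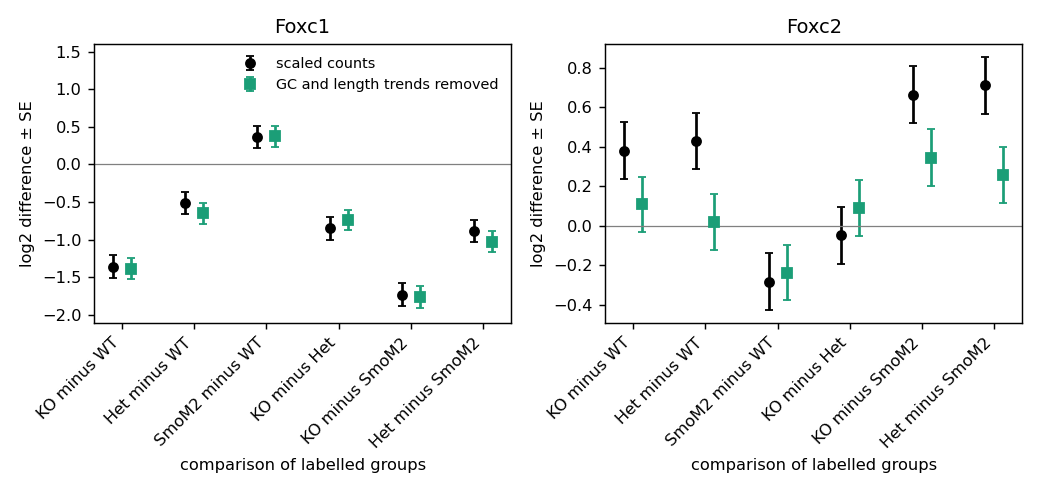
Log2 difference with its SE (vertical axis) of Foxc1 and Foxc2 in 6 comparisons of labelled groups (horizontal axis), from scaled counts (black circles) and with the GC and length trends removed (green squares). The green squares of Foxc1 stay near the black circles (-1.39 and -1.36 for KO minus WT). Those of Foxc2 move toward 0 (0.11 and 0.38 for KO minus WT), except for KO minus Het.

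Per length, the pair changed places. RPKM values, which the authors scaled to gene length and library size, allow a comparison of levels between the genes. Foxc1 was at 58.3 and 47.3 RPKM in KO-labelled, 100 and 80.2 in Het-labelled, 130 and 131 in WT-labelled and 159 and 169 in SmoM2-labelled libraries. Foxc2 was at 72.8 and 73.1, 71.3 and 71.9, 49.0 and 58.3, and 38.7 and 47.5 RPKM. On this scale the KO-labelled libraries of Foxc2 lay just above the Het-labelled ones, the reverse of the CPM order.

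The ratio of Foxc1 to Foxc2 in RPKM was 0.724 ± 0.109 in KO-labelled, 1.26 ± 0.207 in Het-labelled, 2.45 ± 0.281 in WT-labelled and 3.83 ± 0.397 in SmoM2-labelled libraries (SD, n = 2 each). The single ratios were 0.80 and 0.65, 1.41 and 1.12, 2.64 and 2.25, and 4.11 and 3.55, without overlap between groups. Both genes were chosen by their levels, so the ratio carries no test. By RPKM, Foxc2 was thus the more abundant of the pair in KO-labelled libraries and Foxc1 in all others. RPKM is not corrected for base composition. The GC and length trend for genes like Foxc2 was 0.22 (log2) in KO-labelled replicate 1 and -0.02 in replicate 2. The sum of both genes differed less, from 126 ± 7.51 RPKM in KO-labelled to 162 ± 13.8, 184 ± 7.56 and 207 ± 13.1 RPKM in Het-, WT- and SmoM2-labelled libraries.

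Among the 44 forkhead genes Foxc2 ranked 1 and Foxc1 2 by RPKM in both KO-labelled libraries. Foxc1 ranked 1 in each of the other 6 libraries. Foxc2 ranked 3 and 2 in Het-labelled, 6 and 4 in WT-labelled and 6 in both SmoM2-labelled libraries. Among all 24539 genes Foxc1 moved from rank 1140 and 1429 in KO-labelled to rank 257 and 273 in SmoM2-labelled libraries. In bulk libraries, fewer cells that express a gene and less RNA per cell cannot be told apart.

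**Figure D3:**
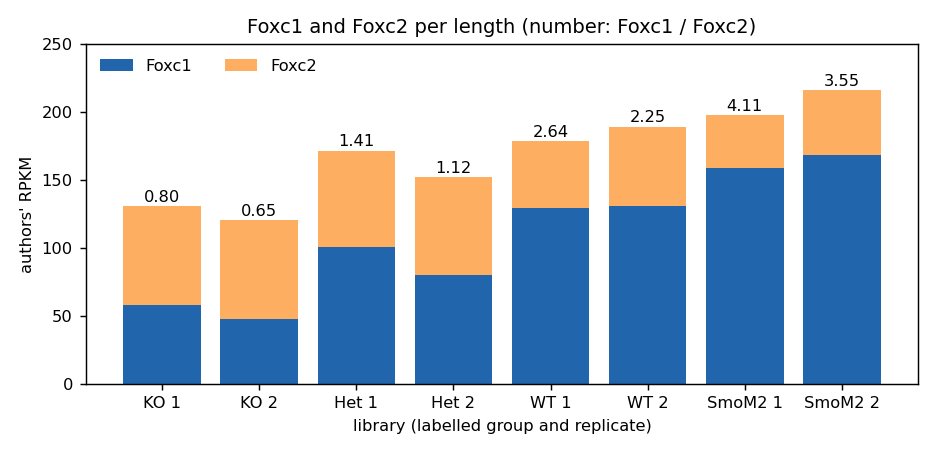
RPKM of Foxc1 and Foxc2 stacked for each of the 8 libraries (vertical axis from 0, libraries by labelled group on the horizontal axis). The Foxc1 part of the bars is larger going from the KO-labelled libraries (58.3 and 47.3 RPKM) to the SmoM2-labelled libraries (159 and 169 RPKM) while the Foxc2 part is smaller.

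Each of the genes has forkhead neighbours, and these were read next. The 5 annotated genes on each side were taken from RefSeq, of which Foxf2, Gmds and Wrnip1 around Foxc1 and Cox4i1, Irf8, Fendrr, Foxf1, Mthfsd, Foxl1, Fbxo31 and Map1lc3b around Foxc2 passed the filter on low counts. Foxf1 and Foxf2 were highest in SmoM2-labelled libraries, whereas the nearest gene before Foxc2, Mthfsd, had a profile like that of Foxc2. Foxq1, another forkhead gene beside Foxc1, had 4 counts or fewer in every library.

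Foxf1, which acts in the mesenchyme of lung and gut and is a known Hedgehog target there, lies 28 kb before Foxc2. It had 0 and 0 counts in KO-labelled, 2 and 0 in Het-labelled, 8 and 8 in WT-labelled and 142 and 96 in SmoM2-labelled libraries. Most of its reads were in SmoM2-labelled libraries. Foxf1, Foxf2 and Fendrr passed the filter on low counts only through the SmoM2-labelled libraries, in which they are high. Their differences between any groups are therefore descriptions with no test. SmoM2- minus WT-labelled libraries gave a log2 difference of 3.97 (SE 0.44) for Foxf1.

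With 3 counts per library taken as the floor, Foxf1 was at least 19.4-fold lower in KO- and at least 28.1-fold lower in Het- than in SmoM2-labelled libraries. Fendrr, the long noncoding RNA next to Foxf1, had 0 and 0, 1 and 1, 5 and 1, and 35 and 18 counts over the groups in the same order. It was at least 4.30-fold lower in KO- and at least 6.22-fold lower in Het- than in SmoM2-labelled libraries. The floor covers counting error only.

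Foxf2, the paralogue of Foxf1, lies 175.2 kb before Foxc1. It had 0 counts in KO- and Het-labelled libraries, 1 in each WT-labelled and 19 and 12 in SmoM2-labelled libraries. It was at least 2.53-fold lower in KO- than in SmoM2-labelled libraries and at least 3.66-fold lower in Het-labelled ones. Foxl1, a forkhead gene of gut mesenchyme 8.8 kb after Foxc2, was at 7.92 ± 1.96, 6.13 ± 2.62, 4.29 ± 0.400 and 7.17 ± 0.160 CPM (SD, n = 2 each) and was not called by edgeR or DESeq2 in any of 6 comparisons, with an unadjusted p under 0.05 in 2.

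Mthfsd, which codes for a protein with a methenyltetrahydrofolate synthetase-like domain, lies 7.8 kb before Foxc2 on the other strand. Its counts were 272 and 234 in KO-labelled, 438 and 322 in Het-labelled, 511 and 368 in WT-labelled and 367 and 304 in SmoM2-labelled libraries, or 55.6 ± 6.56, 56.6 ± 2.73, 43.9 ± 5.34 and 36.3 ± 1.69 CPM (SD, n = 2 each). The KO- and Het-labelled levels overlapped, and the SmoM2-labelled levels were lowest. Mthfsd was higher in KO- than in SmoM2-labelled libraries (log2 difference 0.61, SE 0.15, edgeR adjusted p = 0.00906) and in Het- than in SmoM2-labelled libraries (0.64, SE 0.14, edgeR adjusted p = 0.00604). The share of all tested genes called was 32.5% and 33.7% in those comparisons. Neither call held with the GC and length trends removed (0.35 and 0.34, edgeR adjusted p = 0.0700 and 0.0677). Both were also lost without SmoM2-labelled replicate 2 (0.52 and 0.56), the former without KO-labelled replicate 1 (0.48) and the latter without Het-labelled replicate 1 (0.55).

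The other neighbours had calls of their own. Gmds, which makes GDP-fucose and lies 8.9 kb after Foxc1 on the other strand, was lower in Het-labelled libraries than in SmoM2-labelled ones (log2 difference -0.97, SE 0.20, edgeR adjusted p = 0.00340). It was also lower than in WT-labelled libraries (-0.66, SE 0.20, edgeR adjusted p = 0.0302), where 25.3% of tested genes were called. The latter call was lost without Het-labelled replicate 2 (-0.49) or without either WT-labelled replicate (-0.63 and -0.71). Gmds was at 17.3 ± 0.413 CPM in KO-labelled and 19.2 ± 0.595 CPM in WT-labelled libraries (SD, n = 2 each), with no call, so it did not have the Foxc1 order. Irf8, a transcription factor of myeloid cells, was higher in KO- than in SmoM2-labelled libraries (0.94, SE 0.26, edgeR adjusted p = 0.0165). That call was lost without either KO-labelled library or without SmoM2-labelled replicate 2 (0.59). Map1lc3b, an autophagy gene, was lower in Het- than in WT-labelled libraries (-0.46, SE 0.12, edgeR adjusted p = 0.0162), a call that was lost when any of these 4 libraries was left out. Cox4i1, Wrnip1 and Fbxo31 were not called by edgeR or DESeq2 in any comparison, and of them Cox4i1 had an unadjusted p under 0.05, in 1.

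**Figure D4:**
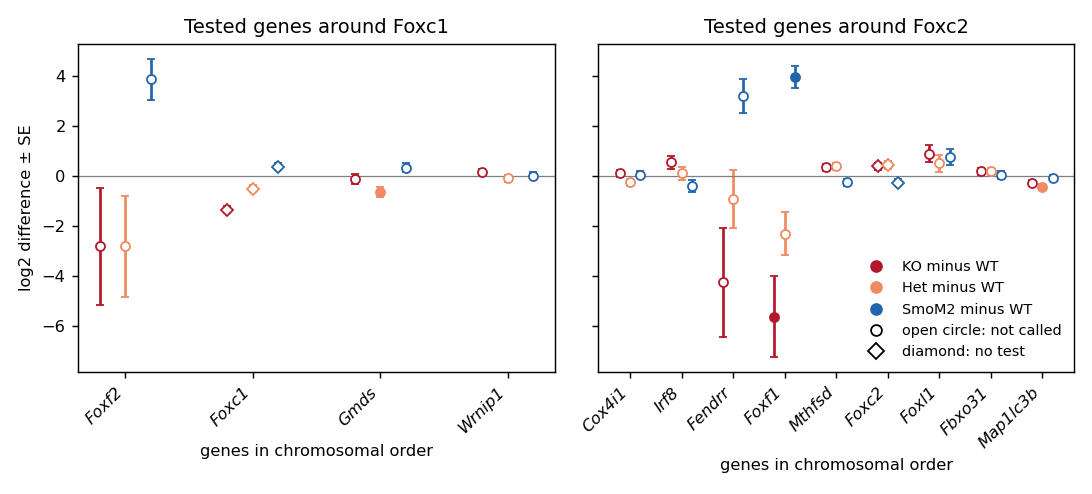
Log2 difference with its SE (vertical axis) from the WT-labelled libraries for the tested genes around Foxc1 and around Foxc2, in chromosomal order (horizontal axis). Filled circles mark an edgeR adjusted p under 0.05, open circles were not called and diamonds are Foxc1 and Foxc2, which carry no test. Foxf1 lies at 3.97 in SmoM2-labelled libraries, through which alone it passed the filter on low counts.

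Other forkhead genes were compared in the fit over all genes, with Foxc1 and Foxc2 set aside. Of the rest 20 passed the filter on low counts. In KO- against WT-labelled libraries 9 were called lower and 0 higher by edgeR (8 and 0 by DESeq2, 11 and 3 at an unadjusted p under 0.05), where 11.4% of all tested genes were called lower and 11.6% higher (23.0% in all). Their median log2 difference was -0.41 against 0.03 over all genes. The 9 were Foxd1, Foxd2, Foxf1, Foxj2, Foxn3, Foxo1, Foxo3, Foxo6 and Foxp4, and without KO-labelled replicate 1 the count was 5. Of these calls, that of Foxf1 (at least 1.23-fold lower) was lost when any KO- or WT-labelled library was left out, that of Foxo1 without either KO-labelled library or with the GC and length trends removed (-0.88), and that of Foxo3 without KO-labelled replicate 1. That of Foxj2 was lost in 12 of 17 alternatives. The 20 include Foxf1 and Foxf2, which passed the filter on low counts only through the SmoM2-labelled libraries. The Foxf1 part of the 9 is therefore a description with no test.

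Foxd2, a forkhead gene of the kidney mesenchyme, had its group means in the order of Foxc1. Its counts were 578 and 453 in KO-labelled, 1862 and 1230 in Het-labelled, 2807 and 2536 in WT-labelled and 2975 and 3051 in SmoM2-labelled libraries. The KO-labelled libraries were below all others. Foxd2 was at 113 ± 20.8, 229 ± 28.3, 269 ± 10.3 and 328 ± 34.2 CPM (SD, n = 2 each). It was lower in KO- than in WT-labelled (log2 difference -1.25, SE 0.15, edgeR adjusted p = 0.000441) and than in Het-labelled libraries (-1.02, SE 0.15, edgeR adjusted p = 0.00714). The latter call was lost without Het-labelled replicate 1 (-0.89, edgeR adjusted p = 0.0805). Het- minus WT-labelled libraries gave -0.23 (SE 0.15, edgeR adjusted p = 0.270), and -0.66 with the GC and length trends removed (SE 0.12, edgeR adjusted p = 0.00509).

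Foxd1, which marks the renal stroma, had 58 and 17 counts in KO-labelled, 168 and 86 in Het-labelled, 2109 and 1574 in WT-labelled and 3762 and 2602 in SmoM2-labelled libraries. The KO- and Het-labelled libraries were all far below the WT- and SmoM2-labelled ones. It was lower in KO-labelled (log2 difference -4.48, SE 0.36, edgeR adjusted p = 4.90e-05) and in Het-labelled (-3.30, SE 0.31, edgeR adjusted p = 0.000101) than in WT-labelled libraries. Foxp4 was at 198 ± 34.4, 317 ± 25.2, 400 ± 32.5 and 435 ± 43.3 CPM (SD, n = 2 each) and was lower in KO- than in WT-labelled libraries (-1.01, SE 0.15, edgeR adjusted p = 0.00117). The mean of Foxp4 thus followed the order of Foxc1.

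In Het- against WT-labelled libraries 2 of the 20 were called higher and 4 lower, where 13.1% and 12.2% of all tested genes were. Foxk1 and Foxk2 were higher, and Foxd1, Foxn3, Foxo1 and Foxo6 were lower. The count of 6 was 3 without Het-labelled replicate 1 or WT-labelled replicate 1. The Foxo1 call was lost in 7 of 16 alternatives, among them each Het-, WT- or KO-labelled library left out, the Foxk1 call in 5 and the Foxk2 call in 2 (without Het-labelled replicate 1 or WT-labelled replicate 1). In KO- against Het-labelled libraries 4 were lower (Foxd2, Foxj2, Foxk1 and Foxp4) and 0 higher by edgeR (5 and 0 by DESeq2, 9 and 1 at an unadjusted p under 0.05), where 5.10% and 4.33% of all tested genes were (9.43% in all). That count was 0 without Het-labelled replicate 1, 1 without Het-labelled replicate 2 and 1 with the GC and length trends removed.

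Against the SmoM2-labelled libraries 10 forkhead genes were called lower and 2 higher in KO-labelled, where 16.0% and 16.5% of all tested genes were. In the Het-labelled libraries 9 were lower and 4 higher, beside 16.7% and 16.9%, and without Het-labelled replicate 2 the count of 13 was 7. Foxj1 and Foxk2 were higher in both, the direction of Foxc2. For Foxj1 the difference was 0.68 (SE 0.21, edgeR adjusted p = 0.0285) and 0.95 (SE 0.20, edgeR adjusted p = 0.00467), and with the GC and length trends removed it was 0.34, no longer called, and 0.51. The KO- against SmoM2-labelled call of Foxj1 was also lost without KO-labelled replicate 1 (0.35) or either SmoM2-labelled library, and the other without Het-labelled replicate 2. For Foxk2 it was 0.48 (SE 0.14, edgeR adjusted p = 0.0192) and 0.73 (SE 0.13, edgeR adjusted p = 0.00203). The former call was lost without KO-labelled replicate 2 or either SmoM2-labelled library. The counts of 10 and 9 called lower include Foxf1 and Foxf2, which passed the filter only through the SmoM2-labelled libraries. Their part of these counts is therefore a description with no test. In SmoM2- against WT-labelled libraries, where 0.156% of all tested genes were called higher and 0.0669% lower (0.223% in all), edgeR called 1 forkhead gene, Foxf1, to which the same applies. Summed over the 44 genes, the forkhead level was 1542 to 1662 CPM in KO-labelled, 2142 to 2355 in Het-labelled, 2593 to 2749 in WT-labelled and 3096 to 3121 in SmoM2-labelled libraries.

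The genes that work with the pair in the kidney were taken in groups by role. Of the metanephric mesenchyme genes, which direct the outgrowth of the ureteric bud, 16 were tested, and 6 were called higher and 3 lower in KO- than in WT-labelled libraries, where 11.6% and 11.4% of all tested genes were. Their median log2 difference was 0.28 against 0.03 over all genes. Gdnf, the signal that draws out the ureteric bud, fell (-0.70, SE 0.21, edgeR adjusted p = 0.0309), from 164 ± 11.1 CPM in WT-labelled to 101 ± 24.5 CPM in KO-labelled libraries (SD, n = 2 each). The guidance pair that restricts the domain of Gdnf fell too, Slit2 by 0.79 on the log2 scale (SE 0.18, edgeR adjusted p = 0.0104) and its receptor gene Robo2 by 1.27 (SE 0.15, edgeR adjusted p = 0.000426). Robo2 was at 201 ± 2.41, 464 ± 96.8, 485 ± 48.8 and 619 ± 30.9 CPM (SD, n = 2 each) over the groups from KO- to SmoM2-labelled. The Gdnf and Slit2 calls were lost with the GC and length trends removed (-0.59 and -0.33), and Robo2 was then at -0.81. That of Gdnf was also lost without KO-labelled replicate 2 (-0.48) or either WT-labelled library, and that of Slit2 without KO-labelled replicate 1 (-0.51).

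Pax8, Hoxa11, Bmp4, Lhx1 and Spry1 were among those that rose. The Spry1 call (0.64, SE 0.15, edgeR adjusted p = 0.0113) was lost with the GC and length trends removed (0.45) and without KO-labelled replicate 2 or WT-labelled replicate 1. Bmp4, which opposes bud outgrowth, was at 83.9 ± 6.90 CPM in KO-labelled and 19.4 ± 6.61 CPM in WT-labelled libraries (SD, n = 2 each; log2 difference 2.11, SE 0.24, edgeR adjusted p = 0.000304). Lhx1, a gene of the renal vesicle, rose by 3.58 (SE 0.42, edgeR adjusted p = 0.000340). The renal vesicle markers as a list summed to 1940 to 2344 CPM in KO-labelled libraries and to 1034 to 1431 CPM in the others, with 9 of 14 tested members called higher and 1 lower in KO- than in WT-labelled libraries (11.6% and 11.4% of all tested genes). Their part in the levels of Foxc1 and Foxc2 was not tested. In SmoM2- against WT-labelled libraries edgeR and DESeq2 called 0 of the 16 metanephric mesenchyme genes, and 3 had an unadjusted p under 0.05. Of all tested genes edgeR called only 0.223% in that comparison.

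Of the podocyte genes, where Foxc2 has its best known kidney role, 16 of 18 were tested. In KO- against WT-labelled libraries 5 were called higher and 4 lower, beside 11.6% and 11.4% of all tested genes, with a median of 0.03, the same as over all genes. Tcf21, a transcription factor of podocyte and stromal precursors, rose by 2.07 (SE 0.23, edgeR adjusted p = 0.000301). Lmx1b, which acts with the Foxc genes in podocytes, fell by 0.55 on the log2 scale (SE 0.15, edgeR adjusted p = 0.0220), and by 1.01 with the GC and length trends removed. Ptpro and Synpo, which code for proteins of podocyte foot processes, fell as well, by 2.21 (SE 0.56, edgeR adjusted p = 0.0171) and 1.33 (SE 0.34, edgeR adjusted p = 0.0187). Without KO-labelled replicate 1 the count of 9 was 5, and the Lmx1b and Ptpro calls were among those lost. Lmx1b was also lost without WT-labelled replicate 2, Ptpro without KO-labelled replicate 2 or WT-labelled replicate 1, and Synpo without KO-labelled replicate 2 (-0.99). Between SmoM2- and WT-labelled libraries edgeR and DESeq2 called 0 of the 16, and 2 were higher and 1 lower at an unadjusted p under 0.05. The share of all tested genes called there by edgeR was 0.223%.

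Genes studied beside the Foxc pair in vessels, heart, bone and somites were mostly low here, and 12 of 20 were tested. In KO- against WT-labelled libraries Hey2, Meox1, Meox2 and Uncx were higher and Foxo1 was lower, which is 5 of 12 beside 23.0% of all tested genes, with a median of 0.52 against 0.03 over all genes. Uncx, a homeobox gene of the somite and of nephron progenitors, was the most abundant, at 1254 ± 252 CPM in KO-labelled and 645 ± 56.4 CPM in WT-labelled libraries (SD, n = 2 each; log2 difference 0.96, SE 0.15, edgeR adjusted p = 0.00168), and with the GC and length trends removed the difference was 0.54. Without KO-labelled replicate 2 the count of 5 was 2, and without KO-labelled replicate 1 or WT-labelled replicate 2 it was 3. The Meox2 difference was 1.10 (SE 0.32, edgeR adjusted p = 0.0304), 1.76 without WT-labelled replicate 1 and 0.63, no longer called, without WT-labelled replicate 2, and that call was also lost without either KO-labelled library. Between SmoM2- and WT-labelled libraries 0 of the 12 were called by edgeR or DESeq2, and 2 were higher at an unadjusted p under 0.05. The share of all tested genes called there by edgeR was 0.223%.

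The Hedgehog pathway genes, read as a measure of signalling through Smo, were all tested. Of these 10, 5 were lower and 2 higher in KO- than in WT-labelled libraries (11.4% and 11.6% of all tested genes). The 2 higher were Gas1 (log2 difference 0.68, SE 0.13, edgeR adjusted p = 0.0040) and Cdon (0.88, SE 0.18, edgeR adjusted p = 0.0065). In SmoM2- against WT-labelled libraries edgeR called 3 higher (Ptch1, Gli1 and Hhip) and 0 lower. DESeq2 called 4 higher and 0 lower, and at an unadjusted p under 0.05 there were 6 and 0. By edgeR 0.156% of all tested genes were called higher there and 0.0669% lower. Ptch1, the receptor and a direct target, was at 53.0 ± 2.32, 76.2 ± 1.00, 161 ± 8.92 and 366 ± 16.0 CPM (SD, n = 2 each) from KO- to SmoM2-labelled libraries, which is the order of Foxc1. Gli1 was at 4.40 ± 2.23 and 3.54 ± 1.23 CPM in KO- and Het-labelled libraries, which did not differ beyond their spread. The SmoM2- against WT-labelled call of Gli1 was lost when any library of those groups was left out. From WT- to SmoM2-labelled libraries Ptch1 rose by 1.18 (SE 0.11, edgeR adjusted p = 0.00219), beside the 0.37 given for Foxc1.

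Markers of other cells were read beside these results because Foxc1 and Foxc2 are also used in stroma and vessels. The 15 stroma markers summed to 548 to 1223 CPM in KO-labelled, 680 to 877 in Het-labelled, 832 to 1097 in WT-labelled and 1140 to 1222 in SmoM2-labelled libraries. Of the 14 tested without Foxc genes, Meis1 and Acta2 were called higher and Foxd1 lower in KO- than in WT-labelled libraries. Of all tested genes 11.6% were called higher and 11.4% lower there. The summed stroma level did not follow the order of Foxc1, whereas Foxd1, a marker of this list, was lower where Foxc1 was lower. The part of stroma cells in the Foxc1 levels was not tested. The 12 endothelial markers summed to 40.5 to 59.1, 49.4 to 50, 29.8 to 33.9 and 27.4 to 35.8 CPM over the groups in the same order, higher where Foxc2 was higher. Most of this sum was Plvap (means of 24.8, 29.4, 14.4 and 10.7 CPM) and Egfl7 (16.5, 14.0, 9.26 and 14.9 CPM). Plvap was higher where Foxc2 was higher, whereas Egfl7 and the other tested members, Eng and Tie1, did not follow Foxc2. The defining markers Pecam1 and Flt1 had 3 counts or fewer in every library. The 6 erythroid markers summed to 13.7 to 45.2, 19.9 to 24.9, 4.10 to 5.23 and 2.77 to 7.87 CPM, also higher where Foxc2 was higher. These 6 are not separate signals, since Hba-a1 and Hba-a2 had identical values, and 1 of the 6 had no count in any library. The 10 collecting duct markers summed to 7.84 to 10.4, 5.94 to 6.02, 19.2 to 21.3 and 34.9 to 48.2 CPM and were higher in the groups where Foxc1 was higher, except that the KO-labelled libraries lay above the Het-labelled ones. Most of that sum was Wnt11, Krt8 and Krt18, while Wnt9b had 1 count or fewer and Aqp2 2 or fewer in every library. The 7 immune markers summed to 14.2 to 26.3, 47.2 to 48.5, 33.0 to 33.1 and 27.8 to 33.4 CPM. The part of endothelial, erythroid and collecting duct cells in the levels of Foxc1 and Foxc2 was not tested.

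Over the 8 libraries and 10347 genes with an average log2 CPM of at least 3, the genes whose log2 CPM was most like Foxc1 were Gse1 (Pearson r = 0.99, Spearman rho = 1), Cercam, Akap13, Thbs3 and Pigm. The most opposite were Znhit6 (r = -0.996, rho = -0.98), Ift22, Myo5b, Rfxap and Hirip3. Most like Foxc2 were H2-DMb1 (r = 0.99, rho = 0.98), H2-Ab1, Aplp1, Cuta and Rcc1, and the most opposite were Avl9 (r = -0.99, rho = -0.93), Lrrc8d, Yipf4, Cul5 and Trib2. The 8 points fall into 4 groups and share library and depth, so these values are descriptions with no test. Gse1 was at 70.0 ± 10.9, 120 ± 14.6, 219 ± 16.5 and 277 ± 3.28 CPM (SD, n = 2 each) from KO- to SmoM2-labelled libraries, with its group means in the order of Foxc1.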

How the data were processed

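The authors' deposited table holds raw read counts per gene for the 8 libraries, a gene length and RPKM values, per the file headers. STAR, featureCounts (Subread) and the mm10 build are named per the submitters' processing notes. Versions, annotation and strand setting are not given in the sources used here. Tests on the counts used edgeR 4.0.16 (R 4.3.3). filterByExpr left 13459 of 24539 genes, libraries were scaled by TMM, and 1 quasi-likelihood fit over all 8 libraries (4 residual degrees of freedom, biological coefficient of variation 13.5%) gave 6 two-sided comparisons, adjusted over all tested genes by Benjamini-Hochberg at 0.05. With 2 libraries against 2, the smallest exact permutation p-value is 0.333, so none was used. Foxc1, Foxc2 and the gene lists were chosen with earlier results of these data known. Named genes are list and forkhead members, neighbours and, for likeness, the 5 highest and 5 lowest correlations. The fit was also run on simulated data, with the outcome not reported here. Coordinates and transcripts come from GENCODE (GRCm38), neighbours and the promoter from RefSeq (GRCm38.p6). GC content was available for 97.9% of tested genes. Alternatives were other scalings, DESeq2 1.42.0, other filters, a replicate block, only the groups compared, each library left out and, added after seeing the data, removal of GC and length trends or of both Het-labelled libraries. Some list members are counted but not reported singly here.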

Additional observations from a re-analysis of the deposited data

How the results depend on the processing

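The Foxc1 levels did not overlap between any groups, so leaving out a library could not be expected to reverse a sign. Foxc1 kept its sign under every alternative in all 6 comparisons. Leaving out each library in turn, its log2 difference ran from -1.54 to -1.21 for KO- minus WT-labelled, -0.71 to -0.38 for Het- minus WT-labelled, -1.02 to -0.69 for KO- minus Het-labelled, -1.90 to -1.58 for KO- minus SmoM2-labelled and -1.09 to -0.76 for Het- minus SmoM2-labelled libraries. Foxc2 ran from 0.21 to 0.53, from 0.26 to 0.59 and, for SmoM2- minus WT-labelled, from -0.45 to -0.087. It ran from 0.47 to 0.78 and from 0.53 to 0.83 for KO- and Het- minus SmoM2-labelled libraries. With GC and length trends removed (added after seeing the data) Foxc2 was at 0.11, 0.018, 0.34 and 0.26 for KO- and Het- minus WT-labelled and KO- and Het- minus SmoM2-labelled libraries. The KO- minus Het-labelled difference of Foxc2 changed sign with that alternative (0.09) and with the totals implied by RPKM. The cause was not tested.

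Counts of called genes moved with the filter, the tool and single libraries. SmoM2- against WT-labelled libraries gave 30 genes, and 82 with DESeq2, 356 with no filter beyond 1 count, 8 with only the 2 groups compared and 19 with the trends removed. KO- against Het-labelled gave 1269, and 2217 with no filter and 308 with the trends removed. Without single libraries the counts ran from 1304 to 2924 for KO- and 1401 to 3615 for Het- against WT-labelled, 8 to 81 for SmoM2- against WT-labelled, 36 to 1472 for KO- against Het-labelled, 2423 to 4440 for KO- and 2409 to 4732 for Het- against SmoM2-labelled libraries. Forkhead counts ran from 5 to 10, 3 to 7, 0 to 1, 0 to 5 and, for Het- against SmoM2-labelled, 7 to 15. SmoM2- against WT-labelled forkhead calls were 2 with DESeq2, 4 with no filter and 0 with at least 10 counts in every library. For KO- against Het-labelled they were 9 with no filter and 1 with the trends removed. Podocyte counts for KO- against WT-labelled ran from 5 to 10, and those of the genes from other tissues from 2 to 5, and from 4 to 8 against SmoM2-labelled libraries. Hedgehog counts were 4 and 5 in KO- against WT- and SmoM2-labelled libraries with at least 10 counts in every library. Of 2957 values for 182 single-gene calls under alternatives, 2650 kept the call, 307 lost it and 0 reversed. Alternatives in which a gene was filtered out or had no adjusted p are not among these values, nor counted as lost.

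The labels do not say that replicate numbers pair the libraries. The correlation of same-numbered deviations was from -0.06 to 0.10 for 5 of the 6 pairs of groups and 0.39 for WT- and SmoM2-labelled libraries, where replicate 1 was of male and replicate 2 of female pattern in both. With a replicate block SmoM2- against WT-labelled libraries gave 54 calls in place of 30. Totals implied by RPKM moved the median of all genes to 0.14 for KO- minus SmoM2-labelled libraries. The ratio of Foxc1 to Foxc2 is the same from scaled counts per kilobase, since the library total cancels.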
